A study of Mus musculus with 6 samples.

Results

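The genes described here are 42 components and targets of the actin cytoskeleton, taken from the deposited count table of 46095 gene rows by their symbols. The list of symbols was drawn up with earlier results of these data known, so it is not an independent choice. They comprise smooth muscle contractile genes, cytoplasmic actins and actin-binding proteins, focal adhesion proteins, the transcription factor SRF with its coactivators, YAP with its partners and target genes, and 3 genes of pericytes, the contractile cells around capillaries. Each of the 42 symbols matched a row, and each passed the low-count filter that left 14757 genes for testing. RNA was sequenced from bulk cultures of brown adipocytes derived from mice that carry U-IRX3ov (3 libraries, titled KI) and from control mice (3 libraries, titled CTRL). All mice were C57BL/6 and 5 weeks old. Cells of the stromal vascular fraction of brown adipose tissue, which holds fat cell precursors with other non-fat cells, were grown to confluence and induced for 8 days in both groups. Induction began with insulin, dexamethasone, rosiglitazone, T3 and IBMX, and went on with insulin, rosiglitazone and T3. The name U-IRX3ov denotes overexpression of IRX3, a homeobox transcription factor. Which promoter drives the construct, in which cells, and whether its IRX3 is human or murine is not stated in the labels. The labels are also silent on whether replicate libraries stem from different mice or dishes, so p-values measure library-to-library spread, which may be technical.

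Myosin II pulls on actin filaments that alpha-actinin, filamin and tropomyosin organise into stress fibres, and focal adhesion proteins tie these fibres to the matrix. Free actin monomers hold the MRTF coactivators (genes Mkl1 and Mkl2) in the cytoplasm. When monomers are used up by polymerisation, MRTF enters the nucleus and drives contractile genes with SRF, which binds a DNA element called the CArG box. YAP and TAZ likewise enter the nucleus of spread and tense cells, where they act through TEAD factors on genes such as Ctgf and Cyr61. Fibroblast-like precursors of fat cells carry stress fibres and take these apart as they round up and fill with lipid.

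Promoter sequences show where the letters bound by these factors lie. A CArG box was found within 250 bases upstream of the start in 6 of the 36 members with a promoter in the RefSeq table, or 16.7%, against 1.62% of 27025 genes. These were Actg1, Cnn2, Myl6, Myl9, Srf and Vcl. The hexamer GGAATG, the core of the TEAD site, was found on either strand in 16 of 36 members (44.4%) and in 14.4% of the 27025 genes. The list was drawn up to hold targets of SRF and YAP, so higher shares than over all genes may follow from that choice. The 27025 genes were not limited to those expressed in these cells. Actb, Actg2, Ctgf, Myh11, Tagln and Tead1 had no entry in that table. These counts used the full 250 bases, which in some members overlap annotated exons of the gene, those of Myl6, Ankrd1 and Myh10 among them. The windows below are from GRCm38.p6, read 5′ to 3′ on the strand of the gene and cut before its first annotated exon. The first 4 are shown for their CArG boxes, in capitals. Vcl holds both a CArG box and the TEAD core, in capitals. Cyr61, a YAP target gene, and Mylk, a contractile gene, hold the TEAD core as its reverse complement CATTCC, in capitals. The Mylk window lies inside the gene, upstream of an internal start and not of the 5′ end of the gene.
Srf, chr17:46556176-46556412, minus strand: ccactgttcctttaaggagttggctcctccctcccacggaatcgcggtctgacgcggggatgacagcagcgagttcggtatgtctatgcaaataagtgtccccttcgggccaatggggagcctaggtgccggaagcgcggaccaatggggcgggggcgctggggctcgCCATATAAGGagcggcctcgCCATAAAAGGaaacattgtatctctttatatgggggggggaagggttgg
Actg1, chr11:120348543-120348745, minus strand: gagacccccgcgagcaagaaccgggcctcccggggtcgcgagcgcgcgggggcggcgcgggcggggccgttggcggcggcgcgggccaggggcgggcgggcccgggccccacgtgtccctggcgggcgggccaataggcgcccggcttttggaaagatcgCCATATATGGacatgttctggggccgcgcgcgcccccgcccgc
Myl9, chr2:156775214-156775419, plus strand: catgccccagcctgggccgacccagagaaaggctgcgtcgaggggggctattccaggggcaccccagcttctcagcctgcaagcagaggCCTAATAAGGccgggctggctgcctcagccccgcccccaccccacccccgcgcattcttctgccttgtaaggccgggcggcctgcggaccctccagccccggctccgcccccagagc
Cnn2, chr10:79988350-79988583, plus strand: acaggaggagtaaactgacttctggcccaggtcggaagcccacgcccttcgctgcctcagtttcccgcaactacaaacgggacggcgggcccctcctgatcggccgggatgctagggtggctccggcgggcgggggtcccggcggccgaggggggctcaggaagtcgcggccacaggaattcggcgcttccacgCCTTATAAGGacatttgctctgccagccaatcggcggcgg
Vcl, chr14:20929148-20929397, plus strand: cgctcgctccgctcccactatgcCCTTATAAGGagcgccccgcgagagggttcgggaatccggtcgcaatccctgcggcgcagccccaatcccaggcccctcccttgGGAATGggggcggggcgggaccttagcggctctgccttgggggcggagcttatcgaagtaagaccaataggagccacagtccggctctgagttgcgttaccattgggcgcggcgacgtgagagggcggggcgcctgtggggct
Cyr61, chr3:145649986-145650235, minus strand: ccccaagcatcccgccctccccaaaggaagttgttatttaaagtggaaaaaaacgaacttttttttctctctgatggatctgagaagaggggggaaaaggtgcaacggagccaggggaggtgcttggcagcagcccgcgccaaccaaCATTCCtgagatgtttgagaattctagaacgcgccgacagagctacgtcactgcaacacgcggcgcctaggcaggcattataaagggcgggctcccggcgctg
Mylk, chr16:34784700-34784920, plus strand: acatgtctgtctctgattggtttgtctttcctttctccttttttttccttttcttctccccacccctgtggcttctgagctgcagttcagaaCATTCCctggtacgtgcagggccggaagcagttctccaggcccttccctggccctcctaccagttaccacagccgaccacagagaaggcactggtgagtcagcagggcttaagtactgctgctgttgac
Distances are counted from the RefSeq start, at the end of the full 250 bases, to the first letter of the match. They are therefore longer than the distance to the end of a sequence that was cut above. The CArG boxes of Srf lie 62 and 82 bases upstream of the start, that of Cnn2 56, that of Actg1 90, that of Myl9 161 and that of Vcl 227 bases upstream. The TEAD core lies 103 bases upstream in Cyr61, 143 in Vcl and, in Mylk, 158 bases upstream of the internal start. A match is a description of the letters and shows no binding.

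The libraries held 20094799 to 26755870 counts. Expression is given as CPM, read counts scaled to a common library size after TMM scaling. Adipocyte markers were abundant in both groups, with a summed level over 8 genes of 33261 to 34657 CPM in U-IRX3ov, against 26120.2 to 26934 CPM in control. Ucp1, the uncoupling protein that defines brown adipocytes, was detected in both groups. Its mean was far higher in U-IRX3ov, at 239.5 CPM, than in control, at 19.7 CPM. Irx3 itself had 6.27, 6.31 and 5.89 CPM in U-IRX3ov, against 4.78, 5.42 and 5.12 CPM in control, which did not overlap, but it did not pass the test, with a log2 fold change of 0.27 ± 0.13 (edgeR adjusted p = 0.112). Reads from the construct may not be counted under this symbol.

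The contractile and cytoskeletal genes were lower in U-IRX3ov cells almost throughout. Of the 42 members, 37 fell, 2 rose (Cspg4 and Wwtr1) and 3 did not pass the test (Mkl2, Yap1 and Notch3), at an adjusted p under 0.05 in edgeR's quasi-likelihood test over all 14757 genes. Of all genes tested, 41.3% were called in either direction. By the same rule, 21.1% were lower and 20.2% were higher. Among the 9228 genes with a mean of 10 CPM or more in at least 1 group, 24.5% were lower and 27.1% were higher. The median log2 fold change was -0.48 over the members and -0.0047 over all genes. Since the members were chosen with earlier results known, these values describe the list only. In 38 members every U-IRX3ov library lay below every control library, against 25.9% of all genes. Cspg4 was the only member with every U-IRX3ov library above every control library, a pattern shown by 24.9% of all genes. Without control library 1 or 3, or U-IRX3ov library 2 or 3, only 1 member (Cspg4) rose. In bulk RNA, fewer cells of a type and less RNA per cell cannot be told apart.

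Log2 fold changes are given with ± their standard error, and mean levels, ratios and shares with ± the SD over 3 libraries. Among the 37 that fell, Tead1 fell by 7.57%, the least, and Rgs5 fell by 54.6%, the most. Of the 42, 20 had a log2 fold change of -0.5 or less, a share that was not computed over all genes. A test against a 1.5-fold change (glmTreat) was passed by 8 members, namely Acta2, Actg2, Lmod1, Actn1, Myl9, Mylk, Tpm1 and Tpm2. Over all 14757 genes tested, 405 passed it as lower and 277 as higher. The members are abundant transcripts, 26 of them in the top 5% of the tested genes. Together they took up 1.58% ± 0.056 of all counts in U-IRX3ov and 2.39% ± 0.031 in control (SD, n = 3 each).

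**Figure D1:**
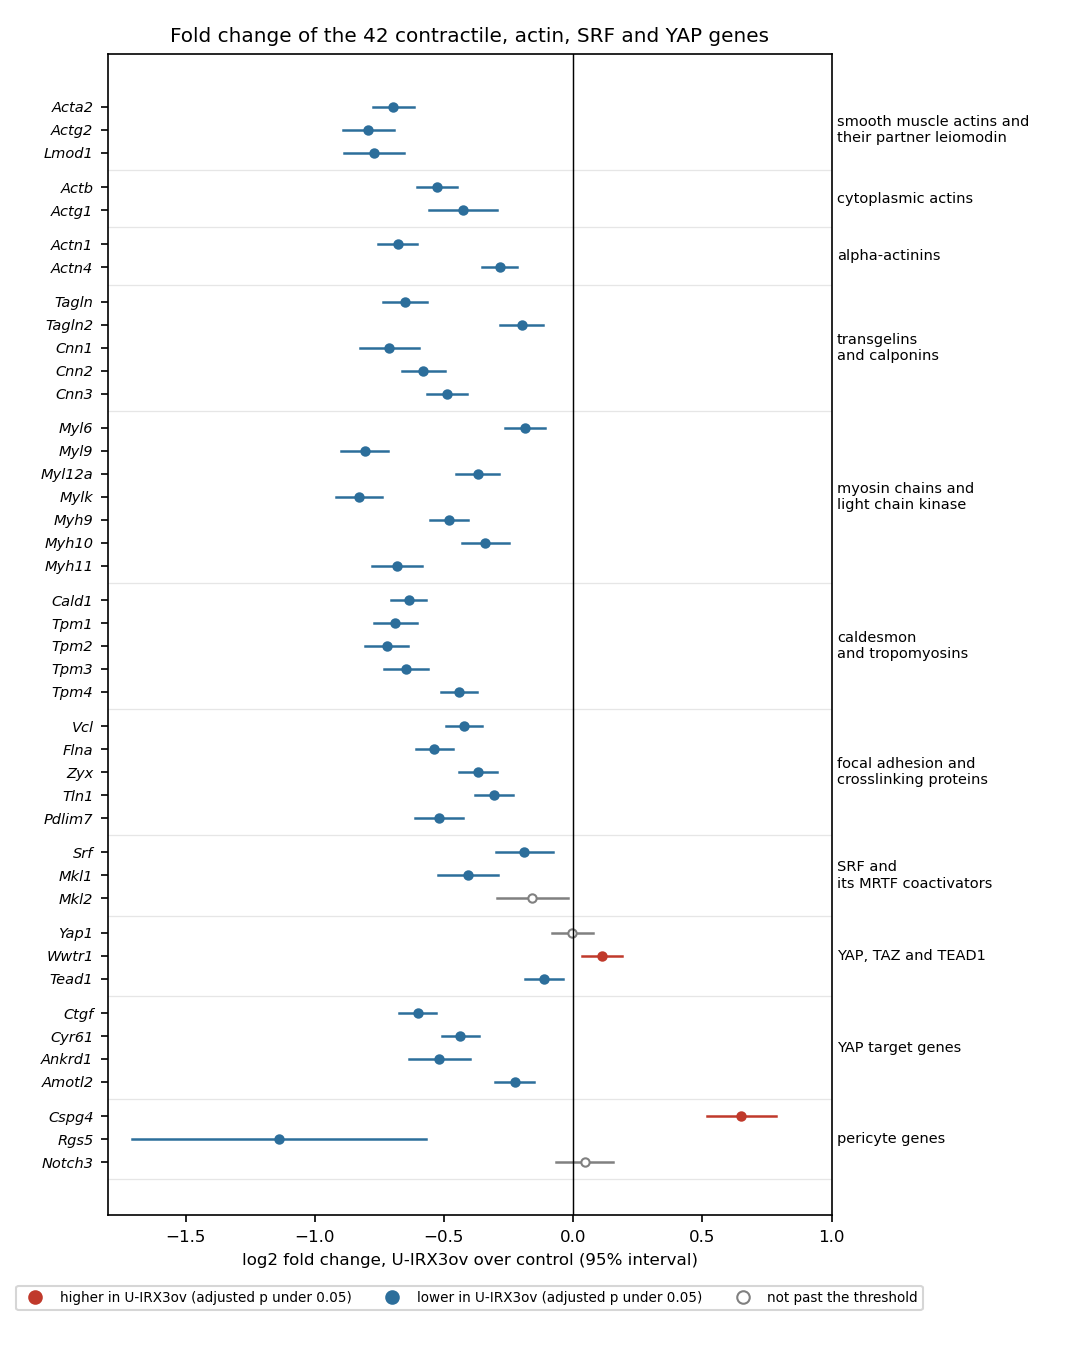
Log2 fold change of each member, U-IRX3ov over control, with its 95% interval, grouped by role. Points left of 0 are lower in U-IRX3ov. The 37 members that fell are blue, the 2 that rose are red and the 3 that did not pass are open circles.

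**Figure D2:**
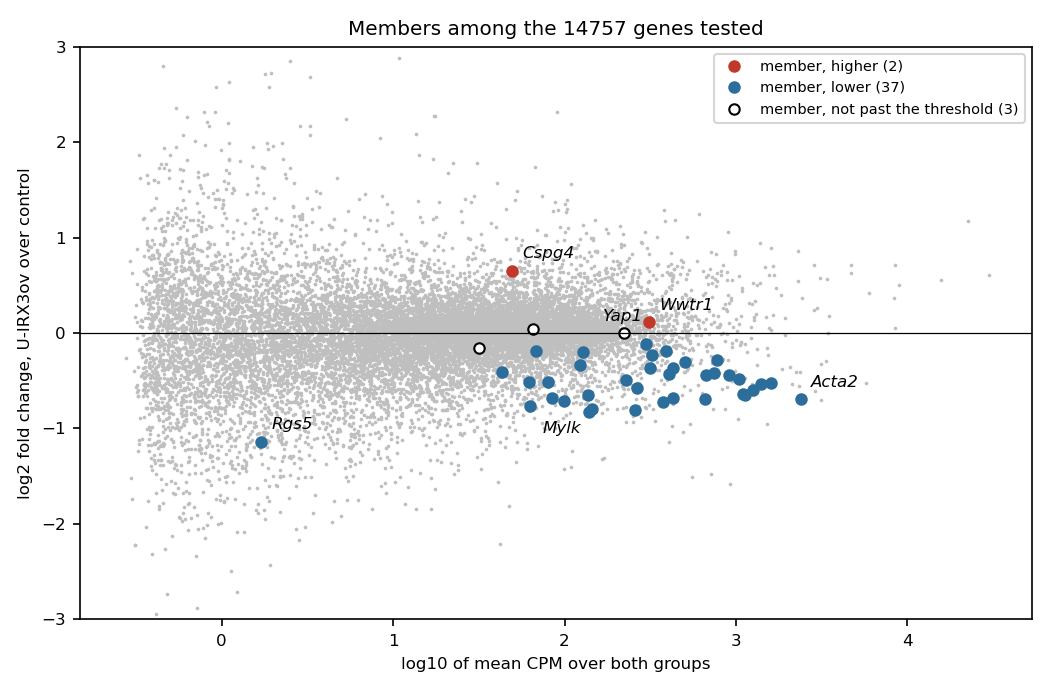
Log2 fold change (U-IRX3ov over control) against the log10 of mean CPM for the 14757 genes tested in grey, with the 42 members as large points; 12 genes lie outside the vertical axis. Most members sit at high abundance and below 0, while Rgs5 is the least abundant member.

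The smooth muscle actins and leiomodin fell, and all 3 passed the test against a 1.5-fold change. Of all genes tested, 21.1% were lower. Acta2, smooth muscle alpha-actin (chr19:34241090-34255590, minus strand, GRCm38), had 1944, 1780.1 and 1734 CPM in U-IRX3ov libraries 1 to 3, against 2968, 2879 and 3001 CPM in control libraries 1 to 3. The groups did not overlap, and its level fell by 38.3%, a log2 fold change of -0.70 ± 0.039 (edgeR adjusted p = 5.24e-14). Actg2, the enteric smooth muscle actin, had 114, 104 and 98.4 CPM in U-IRX3ov, against 174, 185 and 189.9 CPM in control. Every U-IRX3ov library was below every control library, with a log2 fold change of -0.79 ± 0.048 (edgeR adjusted p = 3.3e-12). Lmod1, which nucleates actin filaments in smooth muscle, had 50.8, 43.0 and 44.9 CPM in U-IRX3ov, against 81.0, 76.5 and 79.9 CPM in control. Again there was no overlap, and the log2 fold change was -0.77 ± 0.056 (edgeR adjusted p = 6.74e-12).

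Cytoplasmic actins, which every cell uses for its cortex and for movement, fell with smaller log2 fold changes. Actb, cytoplasmic beta-actin, had 1362, 1223 and 1344 CPM in U-IRX3ov, against 1869, 1899.8 and 1899 CPM in control. The groups were separate, with a log2 fold change of -0.53 ± 0.038 (edgeR adjusted p = 4.37e-12). Actg1, cytoplasmic gamma-actin, had 369, 328 and 349 CPM in U-IRX3ov, against 506, 469 and 431 CPM in control. These did not overlap either, and the log2 fold change was -0.43 ± 0.060 (edgeR adjusted p = 0.000167). For Actg1, 45.6% of its 50-base sequences also occur in other annotated genes, pseudogenes among them, so its counts are less certain. For Actb this share was 12.2%. Per length, over the exons of each gene, Acta2 was the most abundant actin, with 894 ± 54.3 RPKM in U-IRX3ov and 1449 ± 31.0 RPKM in control (SD, n = 3 each). Actb followed with 682 ± 39.6 RPKM in U-IRX3ov and 984 ± 9.31 RPKM in control. Acta2 made up 48.8% ± 1.36 in U-IRX3ov and 51.6% ± 0.67 in control of the summed actin level per length. Actb made up 37.2% ± 1.39 in U-IRX3ov and 35.1% ± 0.53 in control, so the share of smooth muscle alpha-actin was lower and that of beta-actin higher in U-IRX3ov. Neither share overlapped between the groups, and an exact two-sided permutation test of 3 libraries against 3 gave p = 0.1 for each, the smallest it allows. The summed actin level was 1832 ± 94.4 RPKM in U-IRX3ov and 2807 ± 23.9 RPKM in control.

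Alpha-actinins crosslink actin filaments in stress fibres. Actn1 had 346, 327 and 314 CPM in U-IRX3ov, against 521, 532 and 529 CPM in control. No U-IRX3ov library reached a control library, and the log2 fold change was -0.68 ± 0.037 (edgeR adjusted p = 1.99e-14). Its relative Actn4 had 707, 708 and 685 CPM in U-IRX3ov, against 843, 862 and 854 CPM in control. The groups were again apart, by a smaller amount, with a log2 fold change of -0.28 ± 0.033 (edgeR adjusted p = 6.22e-08). The log2 ratio of Actn1 to Actn4 was -1.09 ± 0.050 in U-IRX3ov and -0.69 ± 0.0024 in control, without overlap (exact permutation p = 0.1).

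All 5 transgelins and calponins, which bind and stabilise actin filaments, fell, beside 21.1% lower of all genes tested. Cnn2, the calponin of non-muscle cells, had 221, 209 and 205 CPM in U-IRX3ov, against 315, 302 and 334 CPM in control. Without overlap between the groups, its log2 fold change was -0.58 ± 0.041 (edgeR adjusted p = 3.23e-12). Tagln, the smooth muscle transgelin also called SM22, had 944, 851 and 855 CPM in U-IRX3ov, against 1361, 1344 and 1459 CPM in control. Its libraries were likewise separate, and its log2 fold change was -0.65 ± 0.041 (edgeR adjusted p = 7.1e-12). Exons of Pcsk7 and Gm48529 overlap Tagln on the other strand, and 47.6% of its 50-base sequences are shared with them. Whether the counting used strand is not stated. Cnn3, the acidic calponin, had 192, 189 and 192 CPM in U-IRX3ov, against 268, 258 and 276 CPM in control. The groups did not overlap, with a log2 fold change of -0.49 ± 0.037 (edgeR adjusted p = 1.6e-11), and 26.0% of its 50-base sequences are shared with other genes. Cnn1, the smooth muscle calponin, averaged 75.5 ± 6.44 CPM in U-IRX3ov and 124 ± 6.61 CPM in control, a log2 fold change of -0.71 ± 0.054 (edgeR adjusted p = 2.05e-09). Tagln2, found in many non-muscle cells, averaged 119 ± 2.45 CPM in U-IRX3ov and 137 ± 5.92 CPM in control, a log2 fold change of -0.20 ± 0.041 (edgeR adjusted p = 0.000243). Tagln thus lay further from control than Tagln2, and Cnn1 further than Cnn3. The log2 ratio of Tagln to Tagln2 was 2.89 ± 0.058 in U-IRX3ov and 3.34 ± 0.080 in control, and that of Cnn1 to Cnn3 was -1.34 ± 0.11 in U-IRX3ov and -1.11 ± 0.032 in control, neither overlapping (exact permutation p = 0.1 each).

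Myosin chains and their kinase fell in all 7 cases, where 21.1% of all genes tested were lower. Mylk, the myosin light chain kinase that switches on smooth muscle contraction (chr16:34745210-35002420, plus strand, GRCm38), had 107, 93.6 and 98.3 CPM in U-IRX3ov libraries 1 to 3, against 176, 175 and 181 CPM in control libraries 1 to 3. The groups were far apart, and the level fell by 43.7%, a log2 fold change of -0.83 ± 0.044 (edgeR adjusted p = 9.31e-15). Myl9, the regulatory light chain that this kinase phosphorylates, had 202, 181 and 181 CPM in U-IRX3ov, against 321, 322 and 345 CPM in control. It too showed no overlap, with a log2 fold change of -0.81 ± 0.044 (edgeR adjusted p = 1.69e-13). Myh11, the smooth muscle myosin heavy chain, had 70.1, 62.7 and 62.3 CPM in U-IRX3ov, against 104, 106 and 104 CPM in control. All 3 U-IRX3ov libraries were below the control libraries, and the log2 fold change was -0.68 ± 0.047 (edgeR adjusted p = 2.39e-12).

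The myosin chains of non-muscle cells fell with smaller log2 fold changes than Mylk, Myl9 and Myh11. Myh9, the heavy chain of non-muscle myosin IIA, averaged 869 ± 39.2 CPM in U-IRX3ov and 1212 ± 14.4 CPM in control, a log2 fold change of -0.48 ± 0.036 (edgeR adjusted p = 1.15e-11). Myh10, that of non-muscle myosin IIB, averaged 108 ± 7.16 CPM in U-IRX3ov and 137 ± 2.01 CPM in control, a log2 fold change of -0.34 ± 0.044 (edgeR adjusted p = 3.3e-07). Myl12a, a non-muscle regulatory light chain, averaged 374 ± 6.09 CPM in U-IRX3ov and 483 ± 31.8 CPM in control, a log2 fold change of -0.37 ± 0.040 (edgeR adjusted p = 2.68e-08). In Myl12a, 24.5% of the 50-base sequences are shared, mainly with its neighbour Myl12b. Myl6, the essential light chain of smooth and non-muscle myosin, averaged 367 ± 14.4 CPM in U-IRX3ov and 418 ± 12.9 CPM in control, a log2 fold change of -0.19 ± 0.037 (edgeR adjusted p = 0.000187), with 16.7% of its sequences shared. Per length, Myl9 made up 31.0% ± 0.76 in U-IRX3ov and 39.6% ± 0.42 in control of the 3 light chains. Myl6 made up 40.4% ± 0.17 in U-IRX3ov and 33.5% ± 0.58 in control. Per length, the order of these genes thus differed between the groups, with Myl6 the highest of the 3 in U-IRX3ov and Myl9 the highest in control. This order rests on the exon lengths used. In mean CPM it was the same in both groups, with Myl12a the highest and Myl9 the lowest. In U-IRX3ov library 1, however, Myl6 (384 CPM) was above Myl12a (380 CPM). Among the heavy chains, Myh11 made up 7.07% ± 0.29 in U-IRX3ov and 8.13% ± 0.018 in control, without overlap (exact permutation p = 0.1 for each of these shares). Myh9 made up 84.0% ± 0.21 in U-IRX3ov and 83.7% ± 0.14 in control, where the groups overlapped (exact permutation p = 0.3).

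Caldesmon and the tropomyosins, which lie along actin filaments and govern the access of myosin, fell in all 5 cases. The share of all genes tested that were lower was 21.1%. Cald1, caldesmon, had the smallest p of all members, with 873, 858 and 853 CPM in U-IRX3ov libraries 1 to 3, against 1349.7, 1331 and 1335 CPM in control libraries 1 to 3. The spread within each group was small beside the gap between the groups, and the log2 fold change was -0.64 ± 0.033 (edgeR adjusted p = 6.6e-15). Tpm2, beta-tropomyosin, had 296, 283 and 275 CPM in U-IRX3ov, against 448, 460.3 and 501 CPM in control. The groups were separate, with a log2 fold change of -0.72 ± 0.041 (edgeR adjusted p = 1.3e-13). Tpm1, alpha-tropomyosin, had 524, 509 and 489 CPM in U-IRX3ov, against 781, 797 and 873 CPM in control. It showed no overlap, and the log2 fold change was -0.69 ± 0.040 (edgeR adjusted p = 3.08e-13). Tpm3 averaged 107 ± 3.35 CPM in U-IRX3ov and 168 ± 7.86 CPM in control, a log2 fold change of -0.65 ± 0.042 (edgeR adjusted p = 6.67e-13), with 40.0% of its 50-base sequences shared with other genes. Tpm4, the most abundant tropomyosin per length in both groups, averaged 772 ± 13.7 CPM in U-IRX3ov and 1049 ± 6.98 CPM in control, a log2 fold change of -0.44 ± 0.033 (edgeR adjusted p = 1.17e-11), with 16.1% of its sequences shared. Tpm4 made up 58.5% ± 0.55 in U-IRX3ov and 54.1% ± 1.31 in control of the summed tropomyosin level per length. Tpm2 made up 19.2% ± 0.38 in U-IRX3ov and 21.6% ± 0.87 in control, and Tpm1 made up 17.1% ± 0.35 in U-IRX3ov and 18.7% ± 0.78 in control. The groups did not overlap in these 3 shares (exact permutation p = 0.1 each), which were higher in U-IRX3ov for Tpm4 and lower for Tpm1 and Tpm2.

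**Figure D3:**
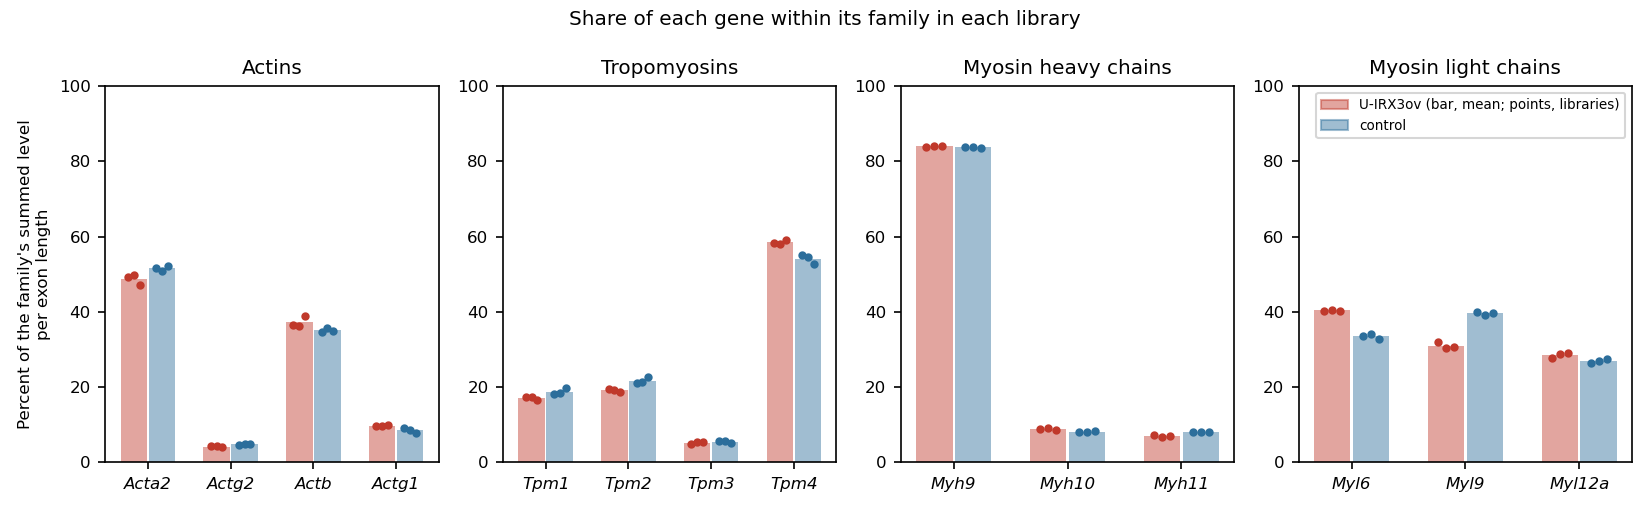
Percent of each family's summed level per exon length taken by each gene, in each library (points) with the group mean (bars), U-IRX3ov left of control. In U-IRX3ov the shares of Acta2, Tpm1, Tpm2, Myh11 and Myl9 were lower and those of Actb, Tpm4, Myh10 and Myl6 were higher, without overlap.

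All 5 focal adhesion and crosslinking proteins fell, with log2 fold changes between -0.54 and -0.31, beside 21.1% lower of all genes tested. Flna, filamin A, which joins actin filaments into networks, had 1170.3, 1145 and 1086 CPM in U-IRX3ov, against 1666, 1637 and 1634 CPM in control. The groups did not overlap, and the log2 fold change was -0.54 ± 0.035 (edgeR adjusted p = 6.42e-13). Vcl, vinculin, which links talin to actin, had 638, 638 and 630.0 CPM in U-IRX3ov, against 861, 872 and 824 CPM in control. They were separate, with a log2 fold change of -0.42 ± 0.034 (edgeR adjusted p = 5.38e-11). Ap3m1 overlaps Vcl on the other strand, and 38.2% of the 50-base sequences of Vcl are shared with it. Pdlim7, a scaffold of the actin cytoskeleton, had 69.1, 65.6 and 62.7 CPM in U-IRX3ov, against 93.3, 93.6 and 96.3 CPM in control. Here too every U-IRX3ov library was the lower, with a log2 fold change of -0.52 ± 0.046 (edgeR adjusted p = 3.17e-10). Zyx, zyxin, a sensor of tension on stress fibres, averaged 274 ± 7.85 CPM in U-IRX3ov and 354 ± 4.47 CPM in control, a log2 fold change of -0.37 ± 0.036 (edgeR adjusted p = 1.84e-09). Tln1, talin, which activates integrins, averaged 453 ± 19.2 CPM in U-IRX3ov and 559.7 ± 7.04 CPM in control, a log2 fold change of -0.31 ± 0.036 (edgeR adjusted p = 6.82e-08).

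**Figure D4:**
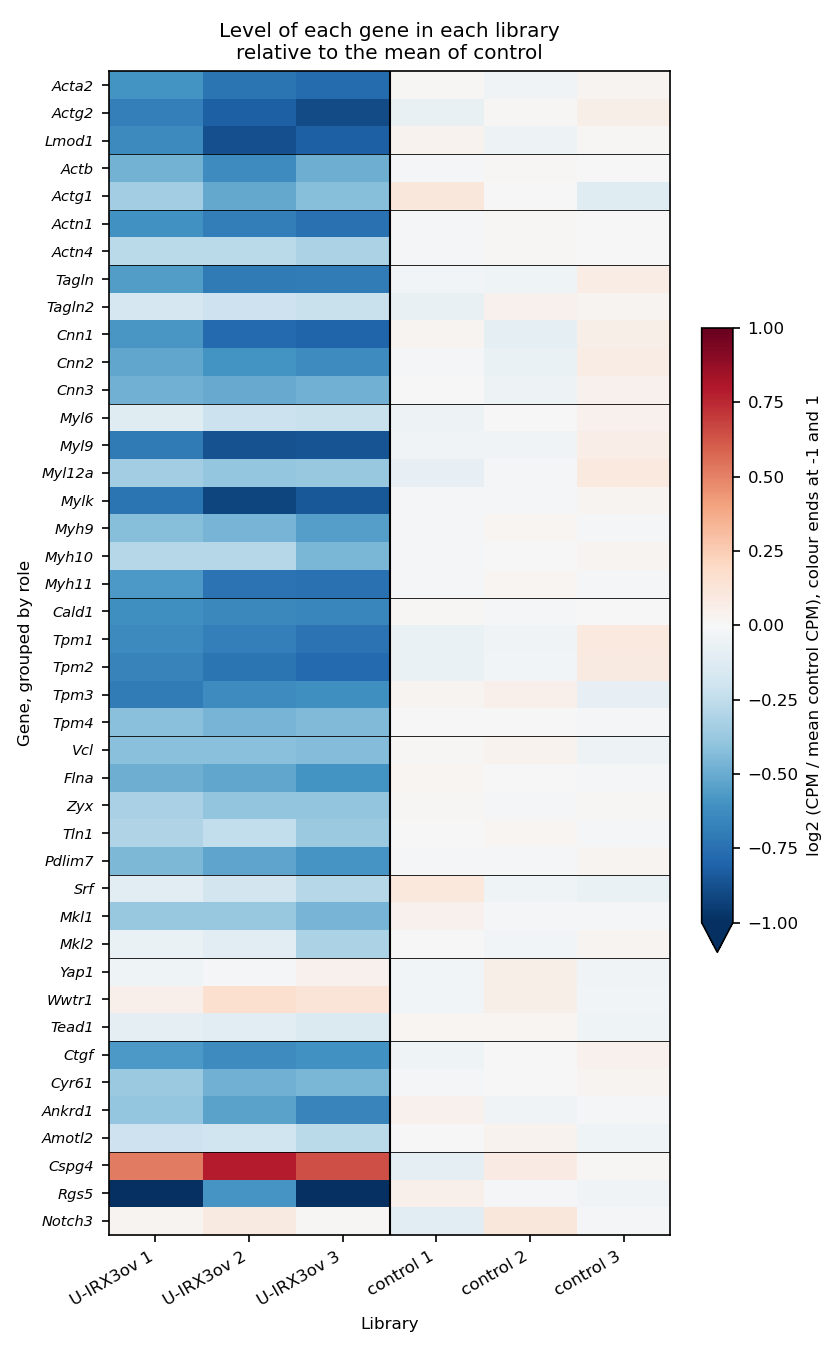
Log2 of CPM over the mean control CPM for each member (rows, grouped by role) in each library (columns, U-IRX3ov left of control); blue is lower and red is higher, and the colour scale ends at -1 and 1. The blue block spans all 3 U-IRX3ov libraries from Acta2 to Pdlim7, and Cspg4 is the one row of strong red.

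Of the transcripts of SRF and its coactivators, 2 fell and 1 did not pass the test, beside 21.1% lower of all genes tested. Srf had 67.5, 64.4 and 59.7 CPM in U-IRX3ov, against 78.3, 70.9 and 69.5 CPM in control. The groups were narrowly apart, with a log2 fold change of -0.19 ± 0.054 (edgeR adjusted p = 0.00573). This call is lost without control library 1 (adjusted p = 0.0678) or without U-IRX3ov library 3 (adjusted p = 0.0559), both in edgeR. Mkl1, which encodes MRTF-A, had 37.7, 37.9 and 35.7 CPM in U-IRX3ov, against 50.6, 48.4 and 48.5 CPM in control. These did not overlap, and the log2 fold change was -0.41 ± 0.057 (edgeR adjusted p = 1.21e-06). Mkl2, which encodes MRTF-B, had 31.8, 30.7 and 26.8 CPM in U-IRX3ov, against 33.2, 32.7 and 33.9 CPM in control. Although its groups did not overlap, Mkl2 did not pass the test, with a log2 fold change of -0.16 ± 0.067 (edgeR adjusted p = 0.0621) and a 95% interval of -0.30 to -0.020. It passed without U-IRX3ov library 1 (edgeR adjusted p = 0.0284).

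The transcripts of YAP, TAZ and TEAD1 differed by little between the groups. Yap1 (chr9:7931999-8004596, minus strand, GRCm38) had 215, 220.5 and 229 CPM in U-IRX3ov libraries 1 to 3, against 218, 231 and 217 CPM in control libraries 1 to 3. The groups overlapped, and the log2 fold change was -0.0036 ± 0.038 (edgeR adjusted p = 0.951) with a 95% interval of -0.082 to 0.075. Wwtr1, which encodes TAZ, had 309, 334 and 326 CPM in U-IRX3ov, against 293, 311 and 293 CPM in control. U-IRX3ov library 1 lay below control library 2, and the log2 fold change was 0.11 ± 0.038 (edgeR adjusted p = 0.0193). Without control library 1 or 3, or U-IRX3ov library 2 or 3, this call is lost, with edgeR adjusted p-values of 0.0892, 0.0549, 0.113 and 0.0561. Tead1, the DNA-binding partner of YAP and TAZ, had 292, 289 and 282 CPM in U-IRX3ov, against 316, 315 and 302 CPM in control. Its groups did not overlap, and the log2 fold change was -0.11 ± 0.036 (edgeR adjusted p = 0.0115). Without control library 1 the adjusted p was 0.0595, and without U-IRX3ov library 3 it was 0.0578, both in edgeR.

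These small differences also depend on how the libraries were scaled. Scaling by total counts alone moved the median of all genes by -0.096 on the log2 scale against TMM scaling. It gave 4670 genes lower and 1935 higher, where TMM scaling gave 3120 lower and 2978 higher. Under total counts the log2 fold change of Yap1 was -0.10 (edgeR adjusted p = 0.0311), that of Wwtr1 was 0.016 (edgeR adjusted p = 0.768) and that of Mkl2 was -0.25 (edgeR adjusted p = 0.00365). Thus Yap1 and Mkl2 were called lower and Wwtr1 was not called.

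The 4 YAP target genes all fell, beside 21.1% lower of all genes tested. Ctgf, a matricellular protein (chr10:24595442-24598683, plus strand, GRCm38), had 1014, 973 and 988 CPM in U-IRX3ov libraries 1 to 3, against 1461, 1503 and 1554 CPM in control libraries 1 to 3. The groups were well apart, and its level fell by 34.1%, a log2 fold change of -0.60 ± 0.035 (edgeR adjusted p = 5.72e-14). Gm15270 overlaps Ctgf on the other strand and shares 17.2% of its 50-base sequences. Cyr61, a related matricellular protein, had 589.9, 548 and 557 CPM in U-IRX3ov, against 754, 762 and 777 CPM in control. Its libraries did not overlap between the groups, with a log2 fold change of -0.44 ± 0.035 (edgeR adjusted p = 6.3e-11). Ankrd1, a nuclear ankyrin repeat protein of muscle, had 56.1, 50.6 and 46.4 CPM in U-IRX3ov, against 75.5, 71.5 and 72.8 CPM in control. There was no overlap here, and the log2 fold change was -0.52 ± 0.057 (edgeR adjusted p = 3.39e-08). Amotl2, an angiomotin family protein that restrains YAP, averaged 299 ± 7.53 CPM in U-IRX3ov and 350.4 ± 9.09 CPM in control, a log2 fold change of -0.23 ± 0.036 (edgeR adjusted p = 8.51e-06).

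The log2 ratio of each target to Yap1 within a library does not depend on the scaling. For Ctgf this ratio was 2.16 ± 0.065 in U-IRX3ov and 2.76 ± 0.070 in control. For Cyr61 it was 1.35 ± 0.091 in U-IRX3ov and 1.79 ± 0.059 in control, and for Ankrd1 it was -2.12 ± 0.18 in U-IRX3ov and -1.60 ± 0.085 in control. For Amotl2 the ratio was 0.44 ± 0.078 in U-IRX3ov and 0.66 ± 0.028 in control, the smallest difference of the 4. None of the 4 overlapped between the groups. Of 12 ratios between related members that were computed, the groups were apart in all 12, each with an exact two-sided permutation p = 0.1, adjusted p = 0.1. Among single genes, 25.9% of all tested were apart and lower, and 24.9% were apart and higher. That share was not computed for ratios of other gene pairs. The ratios reuse the levels given above and are no separate evidence. As Yap1 differed little, the 4 ratios to it largely repeat the fold changes of the targets.

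**Figure D5:**
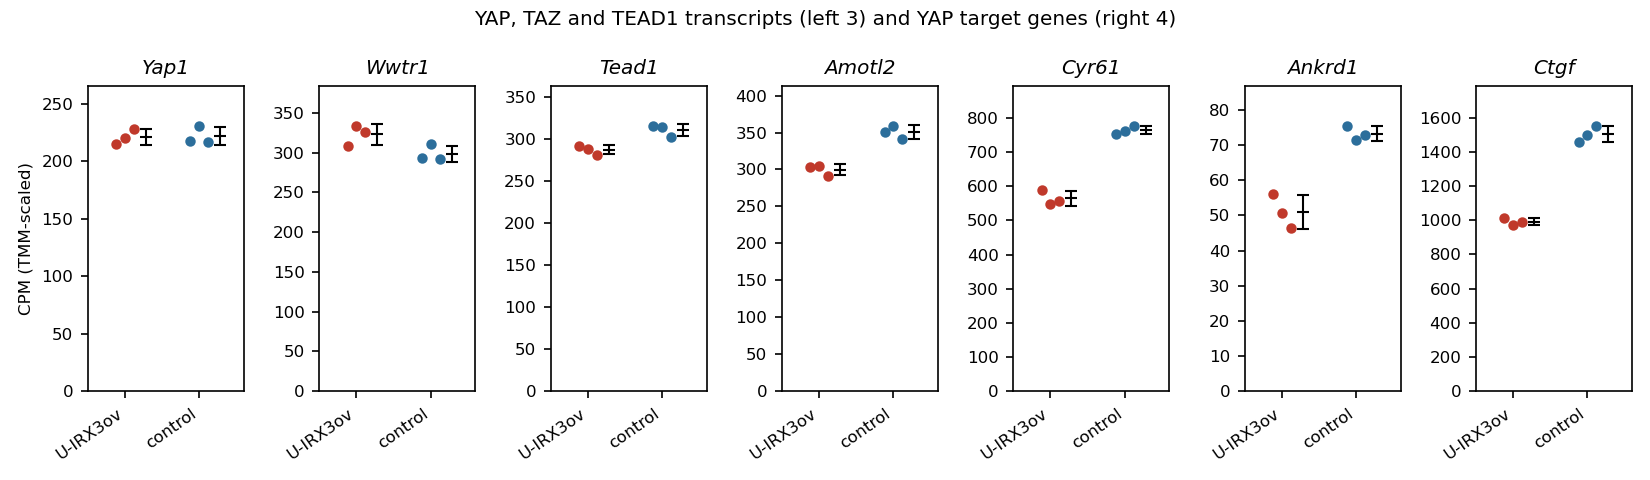
CPM of Yap1, Wwtr1 and Tead1 and of 4 YAP target genes in each library (points), with mean and SD as bars, U-IRX3ov left of control; each panel has its own axis from 0. Yap1 libraries lie between 215 and 231 CPM in both groups together, while the 3 U-IRX3ov libraries of Ctgf (973 to 1014 CPM) lie below the 3 control libraries (1461 to 1554 CPM).

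Of the 3 pericyte genes, 1 rose, 1 fell and 1 did not pass the test, beside 20.2% higher and 21.1% lower of all genes tested. Cspg4, the NG2 proteoglycan of pericytes and other precursor cells (chr9:56865033-56899870, plus strand, GRCm38), had 54.7, 65.8 and 59.5 CPM in U-IRX3ov libraries 1 to 3, against 35.7, 40.4 and 38.4 CPM in control libraries 1 to 3. All U-IRX3ov libraries were above the control libraries, and the level rose by 57.0%, a log2 fold change of 0.65 ± 0.065 (edgeR adjusted p = 7.42e-09). Rgs5, a G-protein signalling regulator of pericytes, had only 25, 30 and 13 counts in U-IRX3ov libraries 1 to 3, against 66, 60 and 61 counts in control libraries 1 to 3. On the CPM scale these were 0.961, 1.54 and 0.671 CPM in U-IRX3ov, against 2.41, 2.29 and 2.26 CPM in control. The groups were apart, at a low level, with a log2 fold change of -1.14 ± 0.28 (edgeR adjusted p = 0.00143) and a 95% interval of -1.71 to -0.57. Notch3, a receptor of mural cells, had 65.7, 68.5 and 64.9 CPM in U-IRX3ov, against 59.5, 69.6 and 63.9 CPM in control. The groups overlapped, and it did not pass the test, with a log2 fold change of 0.045 ± 0.054 (edgeR adjusted p = 0.533) and a 95% interval of -0.065 to 0.16. Of 8 other pericyte and smooth muscle markers, 6 were tested, of which 1 rose (Des) and 2 fell (Pdgfrb and Abcc9), or 4 under scaling by total counts. Kcnj8 and Higd1b were too low to test. Their summed level was 301 to 327 CPM in U-IRX3ov, against 407 to 427 CPM in control, and no marker was at 0 in every library. Pdgfrb, the platelet-derived growth factor receptor of pericytes and fibroblasts, had 196, 188 and 176 CPM in U-IRX3ov, against 292, 269 and 283 CPM in control, a log2 fold change of -0.59 ± 0.042 (edgeR adjusted p = 5.48e-12). The part of these cells in the lower contractile transcripts was not tested.

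Markers of other cell types in the cultures also differed. Beside the counts of these marker lists, here and below, 21.1% of all genes tested were lower and 20.2% were higher. Of 10 preadipocyte and fibroblast markers, 9 were tested and 8 fell, with a median log2 fold change of -0.82 and a summed level of 749 to 813 CPM in U-IRX3ov, against 1226 to 1256 CPM in control. Dpp4 was too low to test. Cd248, a fibroblast surface protein, had 201, 185 and 180.1 CPM in U-IRX3ov, against 336, 342 and 325 CPM in control, a log2 fold change of -0.82 ± 0.040 (edgeR adjusted p = 2.24e-15). For Dpt, a matrix protein of fibroblasts, the log2 fold change was -1.15 ± 0.068 (edgeR adjusted p = 1.71e-13), and for Thy1, a fibroblast surface protein, it was -0.56 ± 0.038 (edgeR adjusted p = 1.55e-12). All 8 macrophage and leukocyte markers fell, with a median of -1.34 and a summed level of 137 to 209 CPM in U-IRX3ov, against 433 to 533 CPM in control. Among them, C1qb, a complement chain made by macrophages, had a log2 fold change of -1.39 ± 0.084 (edgeR adjusted p = 4.77e-13), Csf1r of -1.15 ± 0.094 (edgeR adjusted p = 8.97e-11) and Ptprc of -1.33 ± 0.15 (edgeR adjusted p = 1.96e-08). Neither list had a marker at 0 in every library. The part of fewer fibroblast-like or blood-derived cells in the results on contractile genes was not tested.

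Adipocyte markers moved the other way. Of 8, 7 rose and none fell, with a median log2 fold change of 0.29, and 4 rose when libraries were scaled by total counts. Pparg, the master regulator of fat cell formation, had 189.8, 191 and 199 CPM in U-IRX3ov, against 126, 126 and 126 CPM in control, a log2 fold change of 0.61 ± 0.038 (edgeR adjusted p = 2.2e-13). Lipe, hormone-sensitive lipase, had a log2 fold change of 0.53 ± 0.034 (edgeR adjusted p = 4.8e-13), and Fabp4, a fatty acid carrier, of 0.56 ± 0.038 (edgeR adjusted p = 1.9e-12). Of 6 endothelial markers, 4 rose and none fell, at low levels with a summed level of 38.6 to 44.0 CPM in U-IRX3ov, against 19.2 to 22.8 CPM in control. Pecam1 had a log2 fold change of 1.36 ± 0.12 (edgeR adjusted p = 6.81e-10), Cdh5 of 1.04 ± 0.10 (edgeR adjusted p = 3.84e-09) and Tie1 of 1.33 ± 0.24 (edgeR adjusted p = 6.4e-05). Of 8 striated muscle markers, 5 were tested, of which 3 rose and 1 fell, with a summed level of 19.0 to 24.5 CPM in U-IRX3ov, against 20.5 to 24.7 CPM in control. Acta1, skeletal muscle actin, had a log2 fold change of -0.45 ± 0.089 (edgeR adjusted p = 0.000167). Myh3, an embryonic myosin, had one of 1.48 ± 0.30 (edgeR adjusted p = 0.000231), and Tnnt3, a troponin of fast muscle, one of 2.01 ± 0.46 (edgeR adjusted p = 0.000797). Both rest on few counts. Myh3 had 61, 42 and 48 counts in U-IRX3ov libraries 1 to 3, against 30, 11 and 26 in control libraries 1 to 3. Tnnt3 had 25, 36 and 11 counts in U-IRX3ov, against 9, 5 and 8 in control. Ckm, Myod1 and Myog were too low to test. No marker of these 3 lists was at 0 in every library, and their part in the results on contractile genes was not tested.

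Genes that act around the members were taken from 4 lists, to be read beside the 21.1% lower and 20.2% higher of all genes tested. Of 20 other stress fibre and adhesion genes, 16 fell and none rose, with a median log2 fold change of -0.37. Palld, palladin, an actin-binding scaffold, had 240.3, 234 and 221 CPM in U-IRX3ov, against 382, 396 and 398 CPM in control, a log2 fold change of -0.76 ± 0.038 (edgeR adjusted p = 3.11e-15). The groups did not overlap. Pdlim5, a PDZ and LIM domain scaffold, had a log2 fold change of -0.61 ± 0.035 (edgeR adjusted p = 4.25e-14). Itgb1, integrin beta-1, which anchors cells to collagen and fibronectin, had a log2 fold change of -0.53 ± 0.032 (edgeR adjusted p = 1.95e-13).

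Around YAP, 17 genes of the Hippo kinases and YAP partners were mixed, with 5 lower, 3 higher and a median of -0.059. Of all genes tested, 21.1% were lower and 20.2% were higher. Without control library 1, without control library 3, or in DESeq2, 3 were lower. Vgll3, a TEAD cofactor, had 178, 169.7 and 181 CPM in U-IRX3ov, against 283, 264 and 244 CPM in control, a log2 fold change of -0.58 ± 0.046 (edgeR adjusted p = 6.91e-10). Nf2, merlin, which activates the Hippo kinases, rose by 0.23 ± 0.043 (edgeR adjusted p = 9.71e-05), and Sav1, the scaffold of those kinases, rose by 0.22 ± 0.046 (edgeR adjusted p = 0.000273) on the log2 scale. Of 18 other YAP and TAZ targets, 13 fell and 2 rose, with a median log2 fold change of -0.47 and a summed level of 2089 to 2217 CPM in U-IRX3ov, against 3024 to 3147 CPM in control. The count of higher genes in this list was 1 under upper-quartile scaling, DESeq2 or limma-voom and 0 under scaling by total counts. It was also 1 without control library 2, and 0 without control library 3 or without U-IRX3ov library 2. F3, tissue factor, had 301, 270.1 and 278 CPM in U-IRX3ov, against 579, 536 and 559.5 CPM in control, and its log2 fold change of -0.98 ± 0.041 (edgeR adjusted p = 3.12e-16) was beyond that of any of the 4 YAP target genes among the members. Crim1 had a log2 fold change of -0.84 ± 0.042 (edgeR adjusted p = 3.43e-15) and Ccdc80 of -0.56 ± 0.039 (edgeR adjusted p = 3.34e-12).

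In the list of 10 SRF partners and serum response genes, 5 fell and 2 rose, with a median of -0.16, beside 21.1% lower and 20.2% higher of all genes. Without U-IRX3ov library 2, 3 fell, and without control library 1, 1 rose. Under scaling by total counts 0 rose. Fos, an immediate early gene, had 44.7, 43.3 and 44.5 CPM in U-IRX3ov, against 60.5, 59.1 and 54.4 CPM in control, a log2 fold change of -0.39 ± 0.056 (edgeR adjusted p = 1.45e-06). Egr1, another immediate early gene, rose by 0.14 ± 0.035 (edgeR adjusted p = 0.00214) on the log2 scale, a call lost under scaling by total counts (edgeR adjusted p = 0.358). Myocd, the smooth muscle coactivator of SRF, was low, with 5.58, 4.21 and 4.18 CPM in U-IRX3ov, against 6.86, 6.00 and 6.94 CPM in control, a log2 fold change of -0.49 ± 0.14 (edgeR adjusted p = 0.00749).

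Members with and without a match in the promoter window had close medians. Only exact matches to CC, then 6 letters that are each A or T, then GG were counted as a CArG box. Variant sites and sites outside the window were not, so the classes do not separate genes bound by SRF from others. Members without a RefSeq promoter are in neither class. All 6 members with a CArG box in the window fell, with a median log2 fold change of -0.42. Without one, 25 of 30 fell, with a median of -0.46, beside 21.1% lower of all genes tested. For GGAATG the medians were -0.43 over 16 members with it and -0.46 over 20 without it.

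Libraries of a group differed little in these genes. The median coefficient of variation over the members was 3.96% in U-IRX3ov and 2.97% in control. It was highest for Rgs5 in U-IRX3ov, at 41.8%, and for Actg1 in control, at 7.98%. Within U-IRX3ov, library 1 was the highest of the 3 for 31 of the 42 members, library 2 for 9 and library 3 for 2. Within control the corresponding counts were 10, 15 and 17. The summed level of the members was 15952 to 16849 CPM in U-IRX3ov, against 23027 to 23429 CPM in control.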

How the data were processed

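Gene counts per library were deposited by the authors in 1 table of raw counts. HISAT2 2.0.4 and the build mm10 are named in the submitters' processing notes. Which program and annotation made the counts, and whether strand was used, is not given in the sources. The 3 U-IRX3ov and 3 control libraries were grouped by their titles and held 20094799 to 26755870 counts.

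Genes were filtered with filterByExpr, scaled with TMM and tested with edgeR 4.0.16 (R 4.3.3), using a robust quasi-likelihood F test of U-IRX3ov over control. P-values were Benjamini-Hochberg adjusted over 14757 genes, with a threshold of 0.05. Standard errors were derived as |log2 fold change| over the root of the F statistic. Limma 3.58.1 (voom), DESeq2 1.42.0, other scalings, filters and thresholds, glmTreat, a replicate block and leaving out each library were alternatives.

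RPKM is CPM per kilobase of the merged exons of protein-coding transcripts in GENCODE M21 (GRCm38), which matched all 42 members, 4 of them under newer symbols (Ctgf as Ccn2, Cyr61 as Ccn1, Mkl1 as Mrtfa and Mkl2 as Mrtfb). Shared sequence was counted over all 50-base stretches of the protein-coding transcripts of each member in GENCODE M21, across splice junctions. By this count 10 members shared 10% or more. Promoters are from RefSeq (GRCm38.p6), with both strands of the 250 bases upstream searched. Ratios and shares were compared by exact two-sided permutation tests.

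The members and the 11 lists of other genes were chosen with earlier results of these data known. The results of 1 of these lists are not reported here. Every member is named. Up to 3 members of each role with the smallest adjusted p and at least 10 CPM are given by library, as are all members of roles of 3 or fewer and all members called higher. Other lists give up to 3 genes with the smallest p. Ucp1 and Irx3 were added to check the labels.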

Additional observations from a re-analysis of the deposited data

How the results depend on the processing

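Of the 42 members, none that passed the test changed its direction under any alternative run. A replicate block gave 37 members lower and 2 higher, the same as without it, and over all genes 3159 lower and 3014 higher. Deviations from the group mean correlated at -0.109, 0.174 and -0.0274 between libraries numbered 1, 2 and 3. The libraries numbered 2 correlated best with each other, and those numbered 1 and 3 did not. Deviations from a mean of 3 libraries are constrained, so these values cannot decide on pairing. The labels state no pairing, and the numbers were not taken to pair libraries. The block changed no member's call. Leaving out 1 library at a time gave 35 to 38 members lower, 1 to 2 higher and 36 to 40 called.

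The test against a 1.5-fold change left 8 members lower, 0 higher and 8 in all. Over all genes it left 405 lower, 277 higher and 682 in all, and over the 11 lists 17 lower and 6 higher; its higher bar is part of its construction. At an adjusted p under 0.01, 1 member was higher. Scaling by total counts gave 1 member higher, 1935 of all genes higher and 16 listed genes higher. The estimate for Yap1 turned to 0.000856 with DESeq2 size factors in edgeR and to 0.000804 with DESeq2, and leaving out 1 library gave -0.025 to 0.026. That for Notch3 turned to -0.051 under total counts, and leaving out 1 library gave -0.0077 to 0.10. Neither gene passed the test with TMM scaling, and the cause was not tested. Rgs5 rests on few counts, and leaving out 1 library gave log2 fold changes of -1.48 to -0.92. Reads from overlapping or near-identical genes limit Actg1, Tagln, Vcl, Tpm3 and the other members named with shared sequence. With 3 libraries a group, a permutation test of 1 value cannot go below p = 0.1.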
